A study of Mus musculus with 5 samples.

Results

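The genes described here carry the signal of the canonical Wnt pathway inside the cell: Ctnnb1 (beta-catenin), Apc, Axin2 and Gsk3b of the destruction complex, and the DNA-binding factors Lef1, Tcf7, Tcf7l1 and Tcf7l2. The rule took every probe set annotated with exactly 1 gene whose symbol is in this list. Of 20380 probe sets with 1 gene, 16 belonged to 7 of the 8 genes, and no probe set was annotated with Tcf7 in the annotation used here. Ctnnb1 and Apc had 3 probe sets each, Axin2 and Tcf7l1 had 2, Tcf7l2 had 4, and Gsk3b and Lef1 had 1. The samples were 5 separate isolates of wild-type mouse embryos at E10.5, dissected to contain the pharyngeal arches and labelled as holding the second heart field. The embryos came from a 129P2/OlaHsd stock that had been crossed back to C57BL/6 over 2 generations. RNA was prepared from each isolate separately, and 10 ng of it was amplified and labelled for an Affymetrix GeneChip. All samples formed 1 group, so levels and the spread between samples can be described, and no treatment or genotype was compared.

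Beta-catenin links cadherins to the actin cytoskeleton at cell junctions and also acts in the nucleus. Without a Wnt ligand, the scaffolds Axin and Apc hold it beside the kinases casein kinase 1 and Gsk3, which mark it for ubiquitination and breakdown. When a Wnt ligand binds its receptors the complex is inhibited, beta-catenin accumulates, and it turns TCF and LEF factors at target genes from repression to activation. In the embryonic head and heart this pathway is known for roles in neural crest, arch growth and the second heart field. Most of its control acts on the beta-catenin protein, which an RNA array does not measure.

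The background level of each array, a signal of 17.7, 16.4, 18.8, 22.6 and 23.4 in replicates 1 to 5, was taken from 168 probe sets of families that arch tissue is not known to use, such as olfactory receptors, hair keratin-associated proteins, defensins, caseins and protamines, as the 95th percentile of their log2 values. A wider name pattern, which also takes in casein kinases and interferon receptors, gave a stricter level of 138 to 198. Some of the genes it adds were themselves above background, such as Csnk1a1 (2071 ± 433) and Csnk1d (433 ± 52.0; signal ± SD, n = 5). This level is therefore a stricter cut-off and no measure of background, and a probe set that does not pass it can still be detected. Median signals were 28.1 to 32.2. Arch mesenchyme and crest markers stood above background in 7 of 9 genes, neuron markers in 9 of 9, epithelium markers in 7 of 7, endothelium markers in 4 of 7 (57.1%) and erythroid markers in 3 of 5 (60%), where 53.9% of all genes did. Of 6 second heart field markers, Isl1 and Mef2c were above background, while Tbx1 (28.2 ± 10.9), Fgf10 (13.4 ± 6.20), Hand2 (8.24 ± 6.60) and Nkx2-5 (5.09 ± 3.35; signal ± SD, n = 5) were not. Replicate 4 stood apart in the X-linked Xist, with 916 against 1.28 to 26.3 in the other samples. The Y-linked Eif2s3y and Kdm5d were low there, with 20.1 against 769 to 968 and 17.5 against 120 to 201. Uty, also Y-linked, was not above background. By these genes replicate 4 read as female and the other samples as male. Replicate 4 also stood apart in neuron and erythroid markers, whose mean log2 signals lay 0.56 and 0.79 below their averages there (-0.56 and -0.79).

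Of the 16 member probe sets, 10 were above background (limma, one-sided, Benjamini-Hochberg adjusted over all 20380 probe sets), against 50.8% of all probe sets. By gene, with each gene represented by its brightest probe set, 6 of 7 were above background (Ctnnb1, Apc, Axin2, Gsk3b, Tcf7l1 and Tcf7l2), against 53.9% of all 12393 genes. Lef1 was not. The median excess over background was 1.91 log2 units for the 16 member probe sets and 0.57 for all probe sets. The stricter level kept 3 member probe sets, 2 of Ctnnb1 and 1 of Axin2, against 18.4% of all probe sets, and 2 member genes against 21.9% of all genes. The members were chosen with earlier results of these data known, so these shares are a description. Signals are in the scaled units of the arrays. Probe sets differ in how well they bind, so a difference in signal or excess between probe sets is not read as a difference in RNA amount. In whole tissue, fewer cells of a type and less RNA per cell cannot be told apart.

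**Figure D1:**
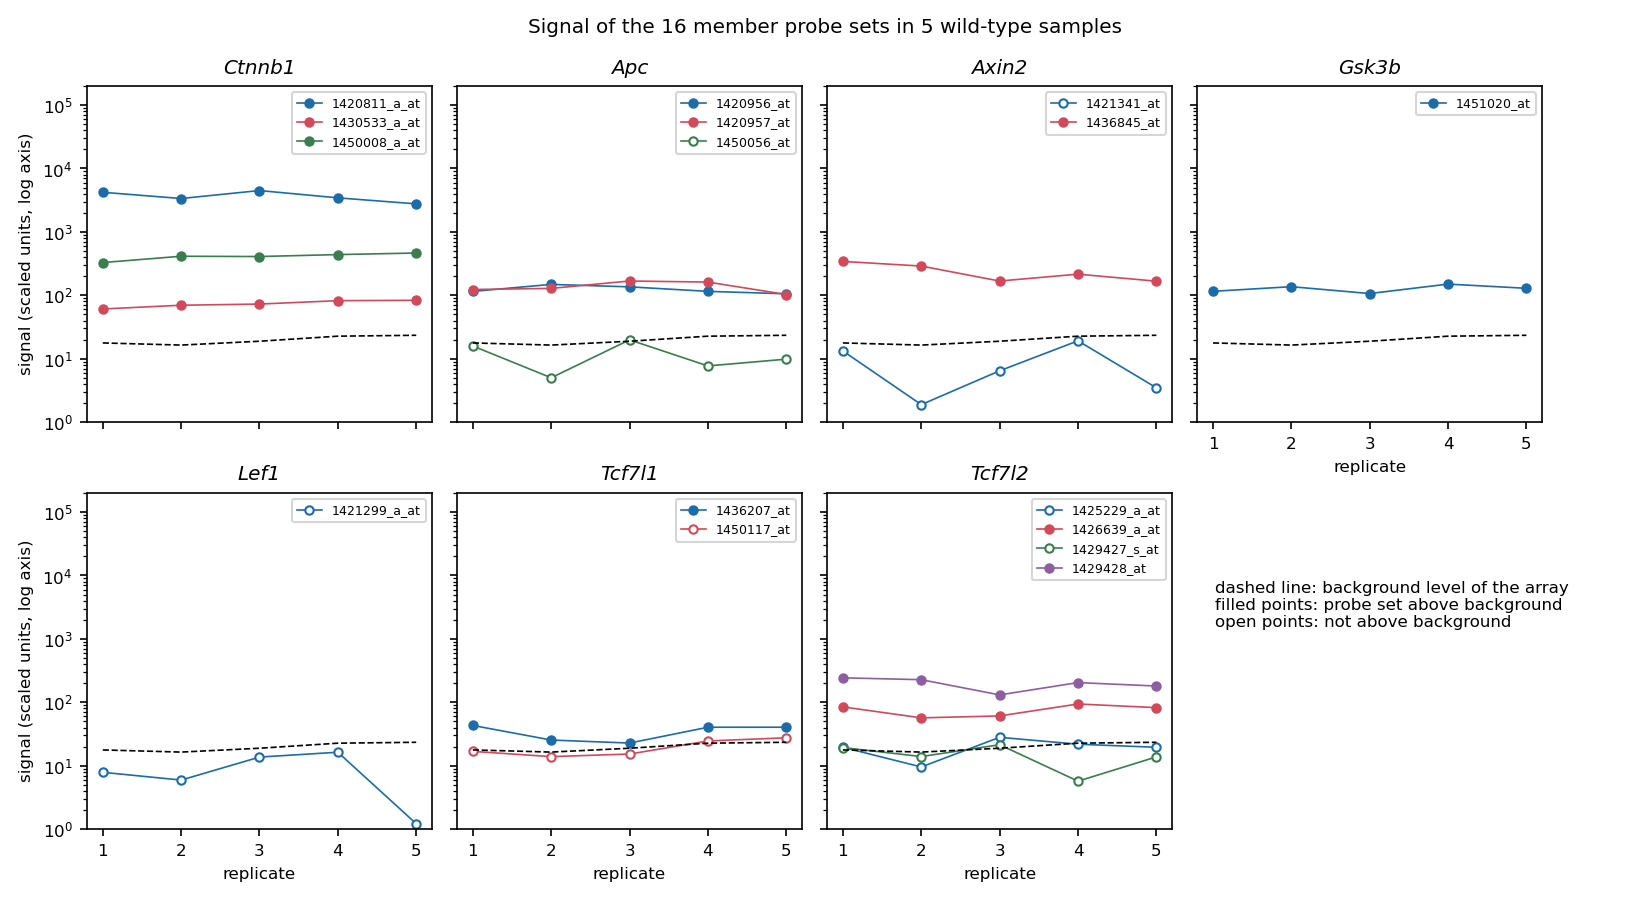
Signal (scaled units, log axis) of each of the 16 member probe sets in replicates 1 to 5, by gene, with the background level of each array as a dashed line; filled points are probe sets above background, and lines only join the points of a probe set. The 3 Ctnnb1 probe sets, 2 of Apc, 2 of Tcf7l2 and 1 each of Axin2, Gsk3b and Tcf7l1 lie above the dashed line in all 5 samples, and the 6 open ones do not.

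Ctnnb1, beta-catenin itself, was measured by 3 probe sets, all with names ending in _a_at, the suffix for probe sets that match several transcripts of a gene. Probe set 1420811_a_at gave 4212, 3360, 4486, 3442 and 2767 in replicates 1 to 5, with an excess of 7.52 ± 0.14 log2 units over background (SE, adjusted p = 2.01e-25, limma). It was highest in replicates 3 and 1 and lowest in replicate 5, a span of 1.62-fold. Probe set 1450008_a_at gave 328, 413, 409, 439 and 464 (excess 4.38 ± 0.15, adjusted p = 8.59e-20, limma). Probe set 1430533_a_at gave 60.9, 69.7, 72.7, 82.2 and 83.3 (excess 1.90 ± 0.17, adjusted p = 1.16e-10, limma). Both were lowest in replicate 1 and highest in replicate 5, the sample in which the first was lowest. The third one, 1430533_a_at, lay below the stricter level in every sample.

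The 3 Ctnnb1 probe sets therefore did not rank the samples alike. The log2 difference between 1430533_a_at and 1450008_a_at varied little, with an SD of 0.059 over the 5 samples, while that between 1420811_a_at and 1450008_a_at had an SD of 0.43 and that between 1420811_a_at and 1430533_a_at an SD of 0.43. Among 5587 pairs of probe sets of the same gene that were both above background, in 2412 genes, the median SD was 0.37. The close pair stood at percentile 0.286 of these pairs and the divergent ones at percentiles 63.7 and 61.9. The disagreement was thus of a size that many same-gene pairs showed, while few pairs agreed as closely as the other 2 probe sets. These pairs were chosen after their values were seen and their percentiles are a description. The 3′ over 5′ signal ratio of the control probe sets, a sign of RNA length after amplification, was 3.73, 2.78, 3.12, 2.89 and 2.89 for Gapdh and 4.34, 3.36, 4.58, 4.82 and 4.69 for beta-actin in the same samples. Both ratios were lowest in replicate 2, and replicate 1 had the highest for Gapdh but not for beta-actin. Their part in the Ctnnb1 pattern was not tested.

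**Figure D2:**
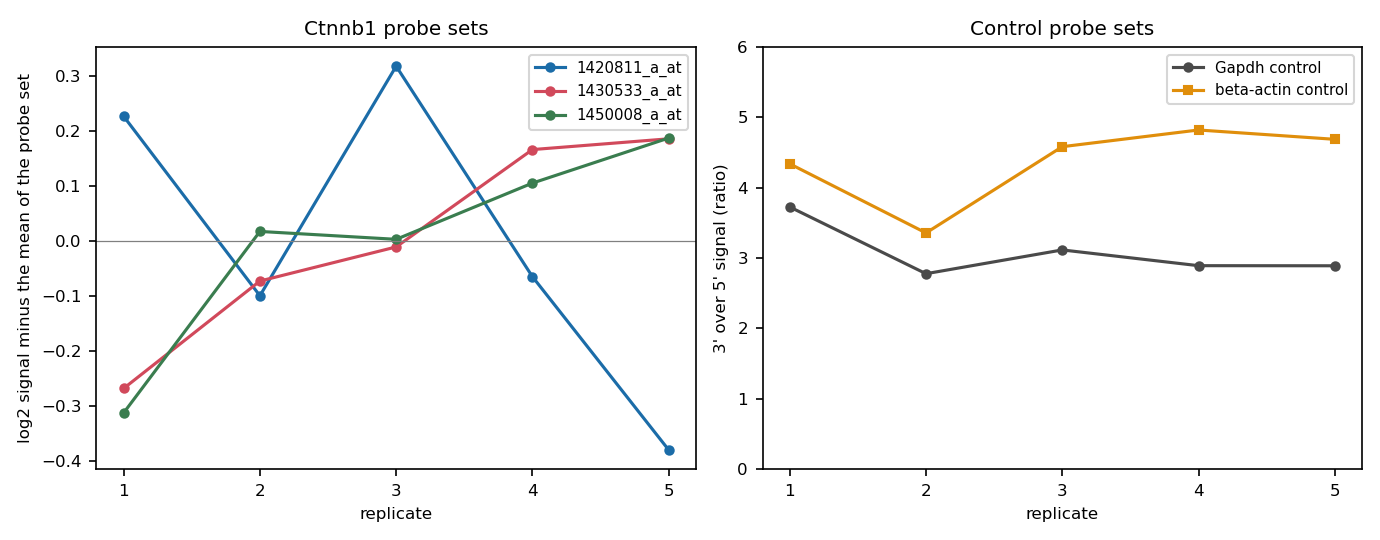
Left, log2 signal of the 3 Ctnnb1 probe sets in replicates 1 to 5, each minus its own mean; right, the ratio of 3′ to 5′ signal of the Gapdh and beta-actin control probe sets. Probe sets 1430533_a_at and 1450008_a_at stand at -0.27 and -0.31 in replicate 1 and both at 0.19 in replicate 5, where 1420811_a_at is at -0.38.

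The start of Ctnnb1 is shown because all probe sets of this gene, the centre of the pathway, were above background. RefSeq holds 2 start windows for it (GRCm38.p6), each running from 250 bases before to 50 bases after an annotated transcript start. The second one, at chr9:120933328-120933627 on the + strand, is printed below 5′ to 3′, with the TATA letters TATAAA in capitals. It has 75% G and C and 51 CpG dinucleotides, against medians of 52.7% and 7 over all 32851 windows in the table. TATAAA, searched on both strands, was found in 5 of the 13 member windows examined and in 13.6% of all windows. The first Ctnnb1 window does not hold it. In the printed window it lies nearer the middle of the stretch than the transcript start, and whether it acts as a TATA box was not tested.
Ctnnb1, second start: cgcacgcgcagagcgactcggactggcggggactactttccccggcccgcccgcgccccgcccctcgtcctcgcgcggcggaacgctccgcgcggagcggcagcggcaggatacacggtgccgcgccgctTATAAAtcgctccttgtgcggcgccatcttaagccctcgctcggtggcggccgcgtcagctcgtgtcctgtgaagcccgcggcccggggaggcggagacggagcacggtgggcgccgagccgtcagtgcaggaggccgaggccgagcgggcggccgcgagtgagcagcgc

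Apc, the large scaffold that brings beta-catenin to its kinases, had 2 probe sets above background and 1 that was not. Probe set 1420956_at gave 115, 149, 136, 115 and 106 in replicates 1 to 5 (excess 2.65 ± 0.18 log2 units, adjusted p = 1.88e-13, limma). Probe set 1420957_at gave 123, 128, 168, 162 and 103 (excess 2.78 ± 0.18, adjusted p = 5.16e-14, limma). Both were lowest in replicate 5, but the first was highest in replicate 2 and the second in replicate 3. The third one, 1450056_at, gave 15.9, 5.00, 19.8, 7.69 and 9.83, above the level of its array in replicate 3 alone, and was not called (excess -0.92 ± 0.45, adjusted p = 1, limma). The log2 difference between the called pair had an SD of 0.28, at percentile 28.8 of same-gene pairs. At the stricter level the mean excess of the called pair was -0.41 and -0.28, so neither passed there.

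Gsk3b, the kinase that phosphorylates beta-catenin, had the single probe set 1451020_at, with 115, 137, 106, 150 and 129 (127.5 ± 17.2, SD, n = 5). It stood above background in all 5 samples (excess 2.69 ± 0.17 log2 units, adjusted p = 3.92e-14, limma). Replicate 4 was highest and replicate 3 lowest, with a span of 1.41-fold. At the stricter level it did not pass (mean excess -0.37).

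Axin2 is a scaffold of the destruction complex and is itself a widely used Wnt target gene, so its RNA is often read as a sign of pathway activity. Probe set 1436845_at gave 342, 289, 168, 215 and 167 in replicates 1 to 5 (236 ± 77.3, SD, n = 5), with an excess of 3.53 ± 0.19 log2 units (adjusted p = 2.12e-15, limma). Replicates 1 and 2 were highest, replicates 3 and 5 lowest, and the span was 2.05-fold. It was the only member probe set outside Ctnnb1 that passed the stricter level (excess 0.47, adjusted p = 0.0251, limma). The other Axin2 probe set, 1421341_at, gave 13.2, 1.88, 6.44, 19.1 and 3.48, below the level of its array in every sample (excess -1.62 ± 0.61, adjusted p = 1, limma). At signals this low the order of the samples carries no information.

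The Axin2 start window is shown because Axin2 is the member that is also a target of the pathway. It lies at chr11:108920099-108920398 on the + strand (RefSeq, GRCm38.p6) and runs from 250 bases before to 50 after the start. The core letters of the TCF and LEF binding site, CTTTG, and the longer form CTTTGAT that contains them were searched on both strands. Neither was found in the Axin2 window, which says only that these letters are not in this stretch, and TATAAA was not found either, so the window is printed without capitals. It has 70% G and C and 31 CpG dinucleotides.
Axin2: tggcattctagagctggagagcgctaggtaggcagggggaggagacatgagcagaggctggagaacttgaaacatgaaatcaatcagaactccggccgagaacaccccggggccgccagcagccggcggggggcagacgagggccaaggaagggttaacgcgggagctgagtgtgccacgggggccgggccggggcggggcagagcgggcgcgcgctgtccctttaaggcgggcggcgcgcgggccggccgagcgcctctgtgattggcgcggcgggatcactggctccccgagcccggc

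Over the 13 start windows examined here, which belong to 7 members (Tcf7 included, Apc not), CTTTG occurred in 8, against 53.9% of all 32851 windows. CTTTGAT occurred in 0, against 3.73% of all windows. The windows of a gene can overlap, so they are not separate counts.

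The TCF and LEF factors bind the same DNA letters and differ in how strongly they repress or activate. Tcf7l2 had 4 probe sets, of which 2 were above background. Probe set 1429428_at gave 243, 227, 131, 204 and 180 in replicates 1 to 5 (excess 3.30 ± 0.18 log2 units, adjusted p = 1.6e-15, limma). It was highest in replicates 1 and 2 and lowest in replicate 3, and at the stricter level its excess was 0.24, without a call (adjusted p = 0.475, limma). Probe set 1426639_a_at gave 84.6, 56.8, 60.9, 94.0 and 82.3 (excess 1.92 ± 0.18, adjusted p = 1.34e-10, limma). It was lowest in replicates 2 and 3 and highest in replicate 4, so the pair shared the low value of replicate 3 and parted in replicate 2. The SD of their log2 difference was 0.39, at percentile 54.5 of same-gene pairs.

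The other Tcf7l2 probe sets lay near or below the level of background. Probe set 1425229_a_at gave 19.5, 9.54, 28.0, 21.8 and 19.5 (excess -0.08 ± 0.29, adjusted p = 1, limma). Probe set 1429427_s_at, whose suffix marks probe sets that can match transcripts of several genes, gave 19.3, 13.9, 21.4, 5.70 and 13.8 (excess -0.54 ± 0.39, adjusted p = 1, limma), and its excess was -0.17 without replicate 4. Each exceeded the level of its array in 2 of 5 samples. Tcf7l2 is known for alternative splicing and alternative starts, and which transcripts each probe set reads was not tested.

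Tcf7l1, known in the mouse chiefly as a repressor of target genes, was near background. Probe set 1436207_at gave 43.1, 25.4, 22.7, 40.4 and 40.4 in replicates 1 to 5, above the level in all 5 samples (excess 0.76 ± 0.22 log2 units, adjusted p = 0.0019, limma). Replicates 2 and 3 were lower than the other samples. With the 99th percentile as level the excess was -0.13, and the call was lost. Probe set 1450117_at gave 16.8, 13.9, 15.3, 24.5 and 27.5 and was not called (excess -0.05 ± 0.28, adjusted p = 0.992, limma). It lay close to the background level, which was itself higher in replicates 4 and 5 than in the other samples, so its order is not read.

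Lef1 is a factor that Wnt signals both use and induce in many embryonic tissues. Its single probe set, 1421299_a_at, gave 7.86, 5.93, 13.7, 16.3 and 1.22 in replicates 1 to 5. It lay below the level of its array in all 5 samples (excess -1.57 ± 0.62 log2 units, adjusted p = 1, limma). The size of this deficit is uncertain, since the excess was -0.89 without replicate 5 and -0.55 on the scale of log2 of signal plus 16, and it was not called in either case. Its sample order is not read either. Poor binding of the probes could give the same reading, and no second Lef1 probe set was annotated, so no absence of Lef1 RNA follows. Tcf7 had no probe set in the annotation used here, so nothing is said of its RNA.

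The first start windows of Tcf7l2 and Lef1 are shown as examples of windows that hold CTTTG. Both genes have further windows, which are not printed, and no link between these letters and the signals was tested. The first Tcf7l2 window lies at chr19:55741560-55741859 and the first Lef1 window at chr3:131110047-131110346, both on the + strand (RefSeq, GRCm38.p6, 250 bases before to 50 after the start). Capitals mark CTTTG or its reverse complement CAAAG, which occurs in 1 place in the Tcf7l2 window and in 2 places in the Lef1 window. The Tcf7l2 window has 70% G and C with 34 CpG dinucleotides, and the Lef1 window has 67.3% with 18.
Tcf7l2, first start: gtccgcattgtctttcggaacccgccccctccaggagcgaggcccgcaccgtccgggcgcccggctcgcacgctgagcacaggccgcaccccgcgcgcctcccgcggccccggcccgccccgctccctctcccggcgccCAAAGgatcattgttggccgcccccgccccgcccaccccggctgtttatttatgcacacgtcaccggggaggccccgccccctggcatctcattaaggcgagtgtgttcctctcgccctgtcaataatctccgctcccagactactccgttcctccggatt
Lef1, first start: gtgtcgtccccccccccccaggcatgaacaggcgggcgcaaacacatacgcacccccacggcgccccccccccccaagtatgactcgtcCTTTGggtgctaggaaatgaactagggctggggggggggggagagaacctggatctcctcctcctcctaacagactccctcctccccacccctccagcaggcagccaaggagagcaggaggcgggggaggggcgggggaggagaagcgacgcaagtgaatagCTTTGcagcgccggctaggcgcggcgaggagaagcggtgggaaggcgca

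Next came the question whether any member differed between the 5 samples by more than probe sets of like signal. Of the 10 member probe sets with a mean above the background level, 0 passed an F test of their variance against limma's trend (limma, all Benjamini-Hochberg adjusted p at or above 0.9875), and 0 had an unadjusted p below 0.05. Among all 11654 probe sets tested, 0.112% passed, and 5.25% had an unadjusted p below 0.05. The median SD between samples was 0.29 log2 units for the members and 0.32 for all tested probe sets. The highest variance ratios to the trend were those of Axin2 1436845_at, with 2.47 (unadjusted p = 0.103, adjusted p = 0.9875), Ctnnb1 1420811_a_at, with 1.95 (adjusted p = 0.9875), and Tcf7l2 1429428_at, with 1.37 (adjusted p = 0.9875). The other 7 had ratios between 0.28 and 0.93. Ratios above 1 were thus seen in 3 of 10 member probe sets, against 44.3% of all tested probe sets, and the median ratio was 0.84 for the members and 0.89 for all tested probe sets. With 5 samples a moderate difference can be missed: of simulated probe sets with 3 times the usual SD, 60% were found. That simulation seeded 100 probe sets at 3 and 100 at 6 times the SD. Where fewer pass, as with the 0.112% here, the adjusted test is stricter and can find a smaller share.

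**Figure D3:**
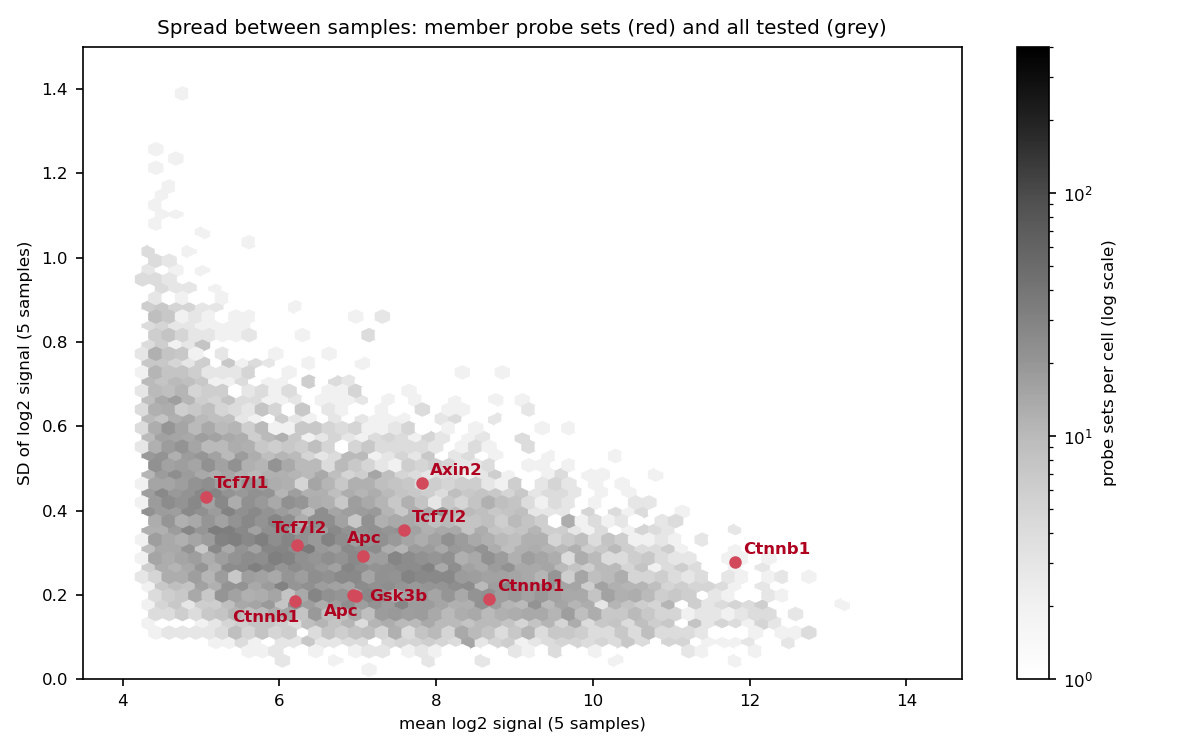
SD of log2 signal over the 5 samples (vertical axis) against the mean log2 signal (horizontal axis), with all 11654 tested probe sets as grey cells shaded by number (log scale) and the 10 member probe sets as red points. Axin2, at an SD of 0.47, stands above the bulk of probe sets of like signal, and the Ctnnb1 probe set at the right, at 0.28, lies at the upper part of the cloud.

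By sample, the members did not share 1 order. Of the 10 member probe sets above background, 4 were lowest in replicate 5, 3 in replicate 3, 2 in replicate 1, 1 in replicate 2 and 0 in replicate 4. Of all probe sets above background, 17.4%, 21.9%, 22.8%, 14.8% and 23.0% were lowest in those same samples. The mean centred log2 signal of the 10 was 0.08, -0.0031, -0.13, 0.13 and -0.07 in replicates 1 to 5, against means between -0.02 and 0.02 for all probe sets above background. Replicate 4, which read as female by its sex-linked genes and stood apart in neuron and erythroid markers, held the lowest value of none of these 10.

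**Figure D4:**
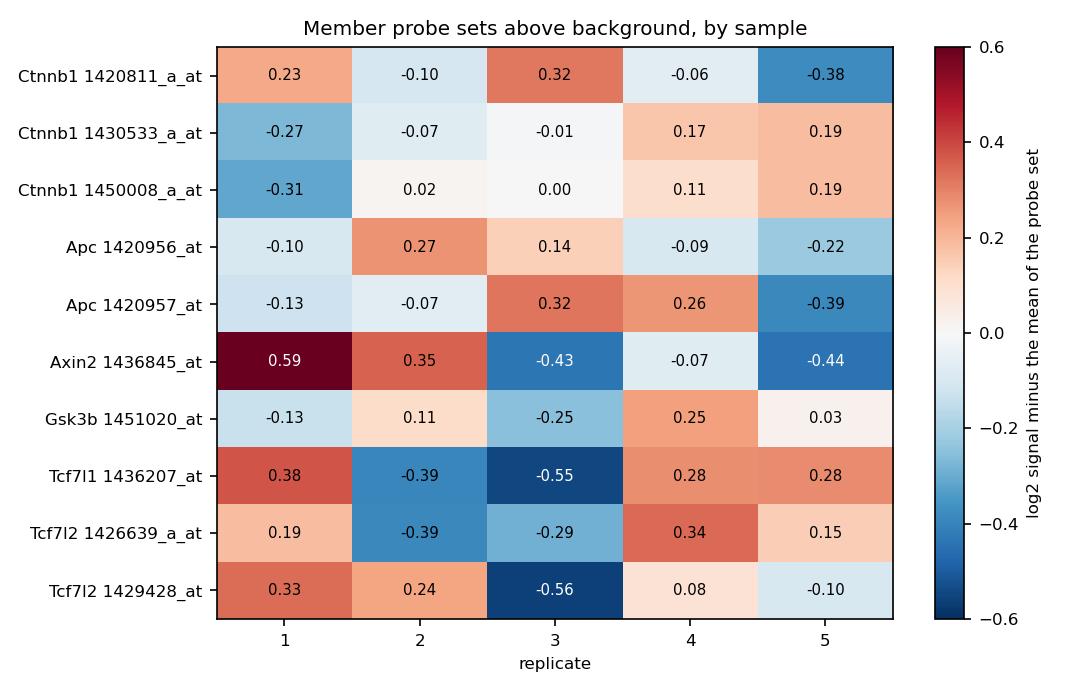
Log2 signal of each member probe set above background in replicates 1 to 5, minus the mean of that probe set (red higher, blue lower). Axin2 1436845_at is at 0.59 in replicate 1 and -0.44 in replicate 5, the Tcf7l1 and Tcf7l2 probe sets are low in replicate 3 (-0.55, -0.29 and -0.56), and the Ctnnb1 probe sets differ in sign in replicates 1 and 5.

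Marker genes shared some of these highs and lows and not others. The Axin2 signal was highest in replicate 1, where the 7 arch mesenchyme and crest markers above background averaged 0.35 log2 units over their own means, against -0.03, -0.16, -0.14 and -0.02 in replicates 2 to 5. Axin2 1436845_at was below its mean in replicates 3 and 4, as these markers were. It stood at 0.35 in replicate 2 and at its lowest, -0.44, in replicate 5, where these markers were close to their means. The summed signal of all 9 measured markers of that list was 6257, 5208, 5013, 5233 and 6037. Neuron and second heart field markers also stood above their means in replicate 1 (0.18 and 0.11). Endothelium, epithelium and erythroid markers stood at -0.15, -0.03 and -0.08 there. Tcf7l1 1436207_at, Tcf7l2 1429428_at and Gsk3b were lowest in replicate 3, where the 7 epithelium markers averaged -0.26, against -0.03, 0.04, 0.23 and 0.03 in replicates 1, 2, 4 and 5. Their summed signal was 1012 in replicate 3 and 1146 to 1601 in the others. Ctnnb1 1420811_a_at and Apc 1420957_at were instead highest in replicate 3, at 0.32 log2 units over their means. The other lists also moved there: endothelium and mesenchyme markers were at their lowest mean in replicate 3 (-0.16 each), while neuron and erythroid markers stood at 0.32 and 0.29. The part of these cell types in the member values was not tested.

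The genes whose pattern over the 5 samples was nearest to that of Axin2 1436845_at, the member with the highest variance ratio, were found among 6676 genes above background by the root mean square difference of centred log2 signals. They were Pim1, a serine/threonine kinase gene, at 0.042, Rab12, a small GTPase gene, at 0.046, and Smarcc1, a chromatin remodelling subunit gene, at 0.048. Pim1 gave 326, 270.4, 160, 204 and 170 in replicates 1 to 5, so it was likewise high in replicates 1 and 2 and low in replicates 3 and 5. With 5 samples many genes share an order.

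The other genes of the pathway were described by 6 lists of 73 genes, of which 64 were measured. Of these 64, 45 were above background (70.3%, against 53.9% of all genes), and 26 at the stricter level (against 21.9% of all genes). The median excess was 1.67 log2 units for the 64 and 0.84 for all genes. Genes of the lists are not independent, and the lists were not tested as sets. The lists were chosen with earlier results of these data known. Their shares here and below are a description and no result about the pathway.

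Partners of the destruction complex were above background in 9 of 12 genes, or 75%, against 53.9% of all genes. They included Tnks2, a tankyrase that marks Axin for breakdown (2598 ± 459, excess 7.03 ± 0.13), Fbxw11, a ubiquitin ligase subunit that recognises phosphorylated beta-catenin (2568 ± 609), Csnk1a1, the casein kinase that primes beta-catenin for Gsk3 (2071 ± 433, excess 6.69 ± 0.15), and Ppp2r1a, a scaffold subunit of protein phosphatase 2A (953.5 ± 193, excess 5.58 ± 0.15). Axin1, the constitutive Axin, was not above background in its brightest probe set, with 9.93, 13.5, 26.8, 29.5 and 17.6 in replicates 1 to 5 (excess -0.13 ± 0.30, adjusted p = 1, limma). It exceeded the level of its array in replicates 3 and 4. Apc2, a relative of Apc best known from neurons, was not called either (18.7 ± 4.19, excess -0.10 ± 0.28, adjusted p = 1, limma). These values are of the brightest probe set, and with the mean of all its probe sets Tnks2 had a lower excess of 2.99.

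In the relay from the receptor to the complex, 4 of 7 genes were above background, or 57.1%, close to the 53.9% of all genes. Dvl1, a Dishevelled scaffold, gave 632 ± 35.7 (excess 5.01 ± 0.15), and the casein kinase gene Csnk1g1 gave 54.1 ± 13.2 (excess 1.43 ± 0.19). Dvl2 (31.2, 43.0, 40.1, 36.7 and 12.9 in replicates 1 to 5, excess 0.63 ± 0.27, adjusted p = 0.0303, limma) and Csnk1g2 (30.8 ± 8.11, excess 0.61 ± 0.24, adjusted p = 0.0163, limma) passed narrowly, and without replicate 2 the count was 2. Frat1, an inhibitor of Gsk3 (23.4 ± 13.0, excess 0.01 ± 0.34), and Dvl3 (6.76 ± 6.39, excess -1.95 ± 0.63) were not called.

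Nuclear cofactors were mostly above background, with 88.9% of coactivators and 90.9% of corepressors and inhibitors, against 53.9% of all genes. Coactivators gave 8 of 9, with Tbl1x (604 ± 132, excess 4.92 ± 0.17), Tbl1xr1 (467 ± 44.8, excess 4.57 ± 0.15), the PHD finger gene Pygo2, a partner of the beta-catenin and Bcl9 complex (458 ± 89.5, excess 4.52 ± 0.17), and the acetyltransferase gene Crebbp (353 ± 74.4, excess 4.14 ± 0.17). Med12, a Mediator subunit gene, was called with a smaller excess (75.8 ± 27.5, excess 1.88 ± 0.21), and Bcl9l was not called (20.4 ± 8.63, excess -0.08 ± 0.30). Corepressors and inhibitors gave 10 of 11, with the deacetylase gene Hdac2 (787.5 ± 106, excess 5.32 ± 0.15), the Groucho family genes Tle3 (619 ± 151, excess 4.94 ± 0.17) and Tle4 (463.5 ± 79.0, excess 4.55 ± 0.17), and Ctbp1 (613 ± 124, excess 4.94 ± 0.16). Ctnnbip1, which blocks the binding of beta-catenin to TCF factors, was called (43.8 ± 6.29, excess 1.15 ± 0.20), and Tle2 was not (8.37 ± 5.35, excess -1.49 ± 0.56).

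Cadherin junction partners, the other pool of beta-catenin binding, were above background in 8 of 10 genes, or 80%, against 53.9% of all genes. They included vinculin, Vcl (1473 ± 88.2, excess 6.23 ± 0.13), alpha-catenin, Ctnna1 (1125 ± 51.8, excess 5.84 ± 0.13), and the cadherin genes Cdh11 (931 ± 127, excess 5.56 ± 0.15) and Cdh2 (585 ± 216, excess 4.82 ± 0.22). Cdh2 gave 655, 882, 642, 393 and 354 in replicates 1 to 5 and was lowest in replicates 5 and 4. The endothelial cadherin Cdh5 (16.4 ± 5.55, excess -0.32 ± 0.33) and Cdh3 (14.8 ± 4.33, excess -0.47 ± 0.35) were not called.

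Often cited Wnt target genes gave 6 of 15 above background, or 40%, against 53.9% of all genes, and their median excess was -0.10 log2 units against 0.84 for all genes. The cyclin gene Ccnd1 (904 ± 220, excess 5.49 ± 0.17), Sox9 (392 ± 117, excess 4.27 ± 0.20), the receptor gene Tnfrsf19 (249.6 ± 56.1, excess 3.65 ± 0.16) and Nrcam (57.7 ± 20.6) were called. The remaining called genes were Dkk1 (51.7 ± 8.07, excess 1.38 ± 0.20) and Myc (49.2 ± 15.1, excess 1.28 ± 0.22). Rnf43, a ubiquitin ligase gene of Wnt feedback (2.26 ± 3.19, excess -3.59 ± 0.59), and Cdx1 (3.71 ± 5.53, excess -3.21 ± 0.64) had the lowest excess. Sp5, Nkd1 and Notum, named after their values were seen because they are commonly used beside Axin2, were not called either, with 7.29 ± 3.77, 18.6 ± 3.40 and 9.40 ± 7.36. Many of these genes are also controlled by other pathways and in a few tissues only.

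**Figure D5:**
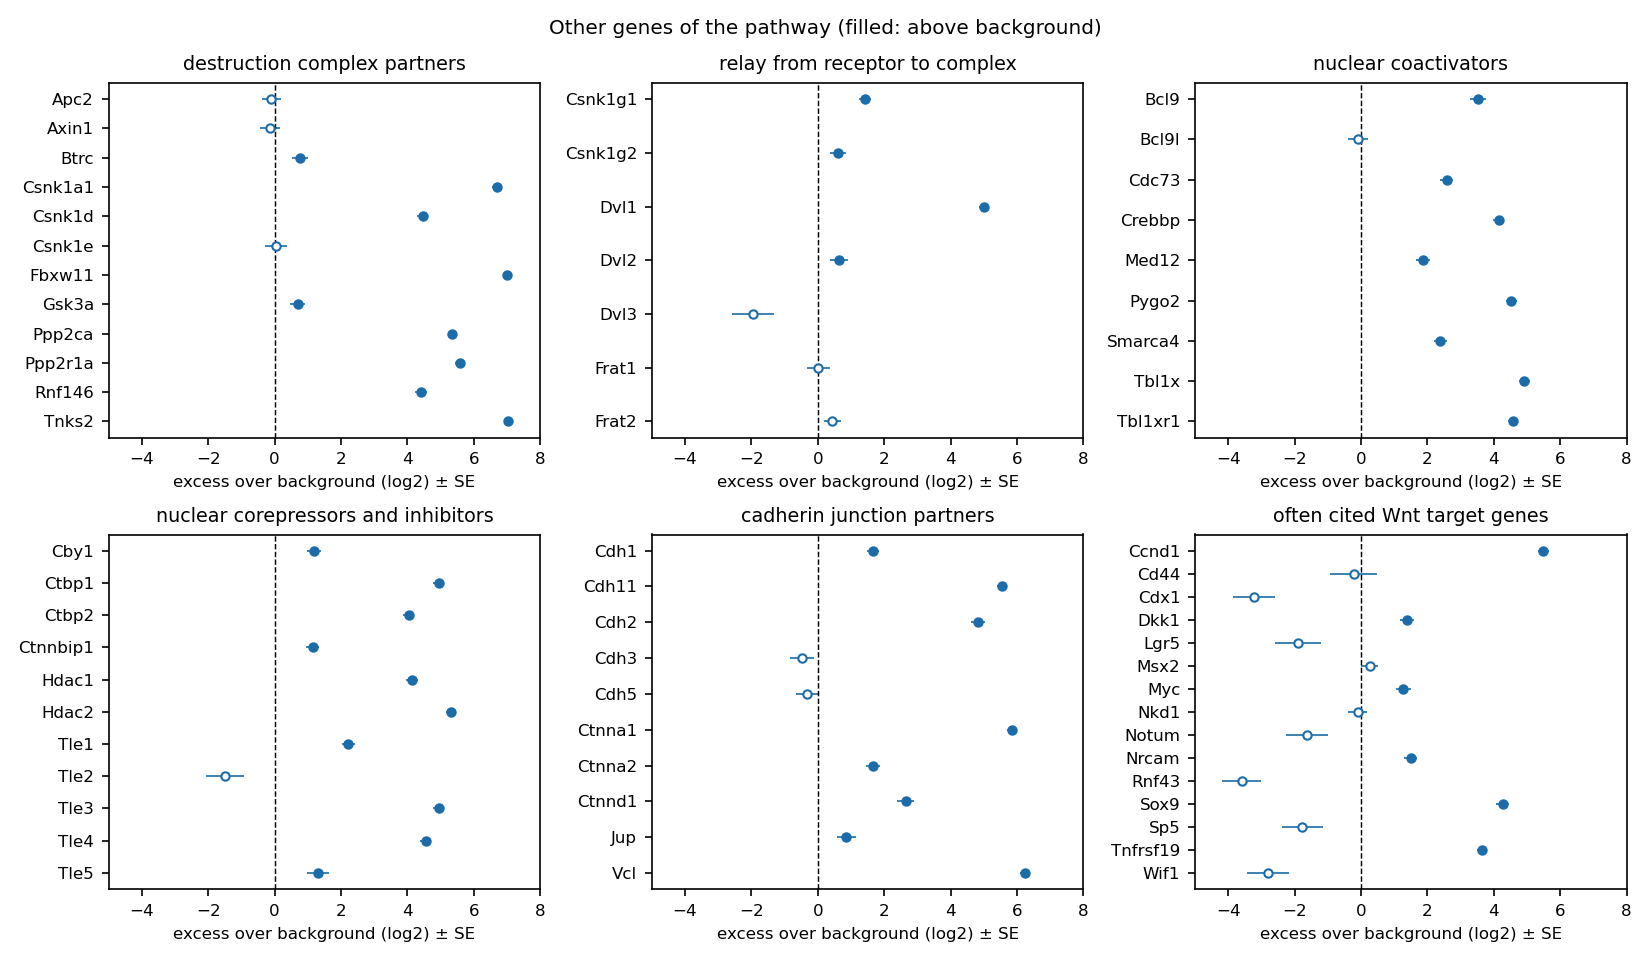
Excess of log2 signal over the background level (horizontal axis, point with SE over 5 samples) for the 64 measured genes of the 6 pathway lists, each by its brightest probe set; filled points are above background and the dashed line marks no excess. Among the nuclear cofactors 8 of 9 and 10 of 11 genes are filled, and among the target genes 6 of 15 are, where 53.9% of all genes were above background.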

How the data were processed

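The deposited intensity values were 1 linear signal per probe set and array, 22690 probe sets in 5 arrays. Per the submitters' processing notes the authors used GCOS; the sources used here name no version or settings. The mean after trimming 2% at each end was 150.1 in every array, so the arrays had been scaled. Control probe sets (64) were left out. Symbols came from a platform annotation, updated by Entrez identifier with RefSeq (20351 of 20380 matched).

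Signals were floored at 1 and taken to log2. The background level was the 95th percentile over 168 probe sets of 143 background genes. The wider pattern held 10 more genes, among them casein kinases, which the pathway lists also hold, and served as an alternative. Excess over background was tested with limma 3.58.1 in R 4.3.3 (intercept fit, trend and robust, one-sided, adjusted p below 0.05) over 20380 probe sets and over 12393 genes, the gene taken by its brightest probe set. Variance was tested against limma's trend over probe sets with a mean above the level. In simulated data for 20380 probe sets, detection found 46.3% at 0.5, 98.5% at 1 and 100% at 2 log2 units, with 0.198% false calls; for 11654, the variance test found 60% at 3 and 88% at 6 times the SD, with 1.99% false.

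Named list genes were the 4 with the largest excess among called genes and the 2 with the lowest, per list. In the target list Dkk1, Myc, Sp5, Nkd1 and Notum were named beside these. The members and lists were chosen with earlier results of these data known. The labels do not give litters, so p-values measure only the spread between these samples. With 5 arrays the number of samples limits the precision.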

Additional observations from a re-analysis of the deposited data

Results flagged for a closer look

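Of 55 probe sets examined for a sample far from the other 4 on the log2 scale, all of them members or genes named by rule, 4 had one, where chance alone gives about 1 in 20; no member probe set was among them. The gap to the nearest sample divided by the range was 0.759 for Csnk1a1, the casein kinase that primes beta-catenin, with 1328 in replicate 5 and 2105 to 2437 in the others. It was 0.734 for Dvl2, a Dishevelled scaffold, with 12.9 in replicate 5 and 31.2 to 43.0 in the others. It was 0.769 for Tnfrsf19, a receptor gene, with 349 in replicate 5 and 209.6 to 236 in the others. For Rnf43, whose signal was below the background level throughout, it was 0.875, with 7.92 in replicate 4 and 1.29 or less in the others.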

How the results depend on the processing

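The count of member probe sets above background was 9 or 10 under every alternative but the wider background families, where it was 3, and that of member genes was 5 or 6, but 2 there. The same level gave 26 of 64 pathway genes, 1 in the relay, 5 coactivators, 6 corepressors, 4 junction partners and 3 targets, where 21.9% of all genes passed. It rests on casein kinases by construction. There the excess turned negative for Ctnnb1 1430533_a_at (-1.16), Apc 1420956_at and 1420957_at (-0.41 and -0.28), Gsk3b (-0.37), Tcf7l1 1436207_at (-2.30), Tcf7l2 1426639_a_at (-1.14), Med12 (-1.18), Ctnnbip1 (-1.91), Nrcam (-1.56), Csnk1g1 (-1.63), Dvl2 (-2.43), Csnk1g2 (-2.45) and Frat1 (-3.05). With the 99th percentile 36 of 64 pathway genes were called. By list these were 7 destruction complex partners, 2 relay genes, 8 coactivators, 7 corepressors and inhibitors, 7 junction partners and 5 targets. The share of all genes called at that level is not given here. The excess there was -0.13 for Tcf7l1 1436207_at, -0.26 for Dvl2, -0.28 for Csnk1g2 and -0.88 for Frat1. With the 90th percentile, values just below the level turned positive without a call: Tcf7l1 1450117_at 0.28, Tcf7l2 1425229_a_at 0.26, Cdh5 0.014, Apc2 0.24, Axin1 0.21 and Bcl9l 0.25. Quantile normalization gave -0.039 for Frat1, and the mean of all probe sets gave -1.18 for Dvl2. That mean also lowered the excess of Tnks2 to 2.99, of Vcl to 2.61 and of Ctnna1 to 2.65, and their calls were kept. Leaving out single replicates gave 2 to 5 relay genes, and turned values near 0: Tcf7l1 1450117_at ran from -0.13 to 0.0092, Tcf7l2 1425229_a_at from -0.24 to 0.10, Axin1 from -0.29 to 0.049, Bcl9l from -0.24 to 0.17 and Frat1 from -0.26 to 0.38. No member probe set passed the variance test under any alternative. No paired analysis was possible because all samples formed 1 group. Signals near the background level limit what can be said of Lef1, Tcf7l1 and Axin1.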
